A study of Bos taurus with 12 samples.

Results

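Heat shock proteins and their partner chaperones were followed through 9 genes in fat samples of 2 cattle breeds, Japanese Black (JB) and Holstein (HS): HSPA1A, HSPA8, HSPA5, DNAJB1, DNAJA1, HSPH1, HSP90AA1, HSPB1 and CRYAB. They were chosen by name, with earlier results of these data known. Every probe set (the group of probes that reads one transcript on the array) annotated with exactly 1 of these symbols was kept. This gave 22 probe sets for 9 of the 9155 genes that the array names in this way. Of the 22, 17 were bright enough to be tested, with at least 1 for each gene, and 5 were not: 1 of the 6 for HSPA1A, 1 of the 3 for HSPA5 and 3 of the 4 for HSPH1. DNAJB1, HSP90AA1 and HSPB1 were each read by 2 tested probe sets, and DNAJA1, HSPA8 and CRYAB by 1.

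Chaperones bind unfolded or partly folded proteins and keep them from aggregating. The HSP70 proteins do so in cycles of ATP hydrolysis: HSPA1A is the form induced by heat and other stress, HSPA8 the form made at all times in the cytosol, and HSPA5, also called BiP, the form in the endoplasmic reticulum. J-domain proteins such as DNAJB1 and DNAJA1 hand substrates to HSP70 and stimulate its ATPase, and HSPH1, of the HSP110 family, speeds the release of ADP from it. HSP90AA1 is the inducible cytosolic HSP90, while HSPB1 and CRYAB (alpha B-crystallin) are small heat shock proteins that hold unfolded proteins without using ATP. Heat shock factor 1 induces many of these genes together, and CRYAB and several small heat shock proteins are abundant in skeletal muscle, where they protect the contractile apparatus.

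All animals were steers on energy-rich feeding. Intramuscular fat (IMF), taken from within muscle, and subcutaneous fat (SCF), from under the skin, were both collected from each breed. There were 3 samples for each breed in each depot, making 4 groups and 12 samples (IMF samples carry the numbers 1 to 3 within a breed and SCF samples 4 to 6), and total RNA of each was hybridised to an Affymetrix bovine array. The sources used here do not give the age of the steers, the muscle sampled or whether samples came from separate animals. The p-values below therefore measure only how far these samples spread, and that spread may be technical in part.

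With 3 arrays per group, their number limits the precision. The median deposited signal per array was 77.6 to 88.3 except in HS IMF 3, at 58.8, which is why arrays were quantile normalised. Samples correlated less within HS groups (0.805 to 0.915) than within JB groups (0.944 to 0.962), and HS SCF 5 had the highest ratio of 3′ to 5′ GAPDH control signals, a measure of RNA degradation, at 4.06 against 1.19 to 2.40 in the others. Markers of the labelled tissue were present. Of 15 listed adipocyte genes, 13 were on the array and 12 were bright enough on average to be tested. None of these 12 lay below that same limit, called the limit of detection here, in all samples of a group. Skeletal muscle genes stood high in the IMF samples. The mean log2 level of 20 muscle fibre genes was 12.231 to 12.797 in JB IMF and 11.795 to 12.822 in HS IMF. In SCF it was 5.8111 to 6.2965 in 4 samples, 8.1582 in JB SCF 6 and 8.1785 in HS SCF 5.

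Signals below are the deposited values, which are linear intensities. Differences were taken between values of log2(signal + 16) after quantile normalisation, a scale that understates the change of dim genes, and are given with their SE. A probe set passed at an adjusted p below 0.05 by limma with Benjamini-Hochberg adjustment over all 16811 tested probe sets, and the words overlap and no overlap refer to the normalised values. Levels of different probe sets are not set against each other, since probes differ in how brightly they bind. The array files name no genome build, so no coordinates are given, and no sequence tables for these genes were used here.

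The series' design names IMF against SCF over both breeds as a main comparison. Of the 17 tested chaperone probe sets, 8 were higher in IMF and 0 lower, and they stand for 5 of the 9 genes: HSPA1A, DNAJB1, DNAJA1, HSPH1 and CRYAB. Over all probe sets, 4.66% were called higher and 6.33% lower (784 and 1064; in the values as deposited, 579 and 1318). Of the 17 differences, 13 were positive (11 in the values as deposited), and their median was 0.39 against −0.06 over all tested probe sets. No overlap between the 6 IMF and the 6 SCF samples, with IMF above, was seen for 5 of the 17, against 3.11% of all. The probe sets of HSPA5, HSPA8, HSP90AA1 and HSPB1 did not pass. In bulk tissue, fewer cells of a type and less RNA per cell cannot be told apart.

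HSPA1A, the stress-inducible HSP70, was higher in IMF on 3 of its 5 tested probe sets. On Bt.5154.1.S1_s_at the signals were 9759, 5031 and 9280 in JB IMF, 6922, 2957 and 4097 in HS IMF, 2093, 1605 and 2249 in JB SCF and 1980, 1705 and 1370 in HS SCF. Every IMF sample lay above every SCF sample. The difference was 1.78 ± 0.24 (SE, 6 against 6 samples), 3.44-fold, with an adjusted p of 0.000588 by limma. Bt.5154.1.S1_at, its companion of nearly the same name, had 5836 to 9428 in JB IMF, 3922 to 9076 in HS IMF, 2032 to 3200 in JB SCF and 1762 to 3066 in HS SCF. It again showed no overlap and differed by 1.45 ± 0.25 (adjusted p = 0.00330, limma).

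The third HSPA1A probe set, Bt.23161.2.A1_at, had 5080 to 7862 in JB IMF, 2741 to 5488 in HS IMF, 2579 to 3718 in JB SCF and 1552 to 2120 in HS SCF. Here the depots overlapped, because HS IMF 2 lay among the JB SCF samples, but within each breed they did not, and the difference was 1.24 ± 0.21 (adjusted p = 0.00353, limma). The 2 remaining tested sets of this gene did not follow. Bt.23528.1.S1_at had its lowest signals in HS IMF (564, 254 and 250) against 474 to 887 in JB IMF, 664 to 792 in JB SCF and 518 to 872 in HS SCF, and differed by −0.44 ± 0.24 (adjusted p = 0.256, limma). Bt.7035.1.S1_at was dim, 25.03 to 125 in all samples, and differed by −0.30 ± 0.23 (adjusted p = 0.424, limma). Bt.7035.2.S1_at, with 6.04 to 56.1, was too dim to be tested.

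These sets thus fall into separate patterns for a single annotated gene. Over 12 samples the normalised values of the 3 sets that rose correlated at 0.872 to 0.976 with each other. Bt.23528.1.S1_at correlated at −0.440 to −0.241 with them and Bt.7035.1.S1_at at −0.259 to 0.020. The 3 were grouped by their rise in IMF, so these values carry the depot difference and are no separate support. With each group's mean subtracted, the 3 correlated at 0.613 to 0.935. Bt.23528.1.S1_at was then at −0.047 to 0.362 with them and Bt.7035.1.S1_at at −0.088 to 0.041. The annotation gives the pair Bt.5154.1.S1_s_at and Bt.5154.1.S1_at another Entrez gene number than the other 4 sets, and RefSeq lists HSPA1B and HSPA2 among the older names of HSPA1A. Which of the near-identical HSP70 genes each set reads is therefore uncertain. In the RefSeq annotation HSPA1A lies beside HSPA1L, another HSP70 gene.

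DNAJB1, the J-domain partner induced together with HSP70 under stress, was higher in IMF on both of its probe sets. On Bt.28288.1.S1_at the signals were 1139, 648 and 925 in JB IMF, 1671, 838 and 965 in HS IMF, 294, 362 and 164 in JB SCF and 354, 187 and 181 in HS SCF. Every IMF sample lay above every SCF sample, and the difference of 2.11 ± 0.26, 4.32-fold, had the smallest adjusted p of the chaperones, 0.000372 by limma. On Bt.17367.1.S1_at they were 917, 661 and 1412 in JB IMF, 841, 278 and 620 in HS IMF, 270, 312 and 187 in JB SCF and 178, 181 and 242 in HS SCF. HS IMF 2 was the lowest IMF sample; its deposited signal lay below that of JB SCF 5, although after normalisation the depots did not overlap. This set differed by 1.79 ± 0.29, 3.45-fold (adjusted p = 0.00253, limma).

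DNAJA1, a J-domain protein of the other main class, showed a small difference. Its signals were 753, 683 and 608 in JB IMF, 595, 455 and 320 in HS IMF, 669, 498 and 474 in JB SCF and 356, 312 and 304 in HS SCF. The depots overlapped, with JB SCF 4 among the JB IMF samples, and the difference was 0.57 ± 0.16, 1.48-fold (adjusted p = 0.0385, limma). This call was lost in 7 of the 12 fits that left out 1 sample, at adjusted p from 0.0601 to 0.108 by limma: those without JB IMF 1, JB IMF 2, JB IMF 3, JB SCF 5, JB SCF 6, HS SCF 5 or HS SCF 6. It was also lost with the arrays centred on their medians (0.48, adjusted p = 0.0841, limma) and in the values as deposited (0.38, adjusted p = 0.222, limma).

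HSPH1, the HSP110 that recharges HSP70 with ATP, was higher in IMF on its 1 tested probe set, Bt.8738.1.S1_at. The signals were 1780, 1072 and 1462 in JB IMF, 1275, 533 and 465 in HS IMF, 1078, 770 and 494 in JB SCF and 198, 523 and 365 in HS SCF. Both depot and breed spread these samples out: HS IMF lay over much the same range as JB SCF. The difference over both breeds was 1.14 ± 0.27, 2.20-fold (adjusted p = 0.0210, limma). It was lost without JB IMF 1 (adjusted p = 0.0640), JB IMF 3 (0.0567), JB SCF 5 (0.0516) or JB SCF 6 (0.0581), and in the values as deposited (0.95, adjusted p = 0.0716), all by limma. Of its 3 dim probe sets, Bt.19629.2.S1_at had signals of 29.4, 5.99 and 18.6 in JB IMF, 21.1, 16.5 and 63.5 in HS IMF, 0.060, 3.40 and 4.56 in JB SCF and 0.010, 2.49 and 1.51 in HS SCF. These lie near background, where a fold has little meaning, but with no filter on dim probe sets it passed too (1.21 ± 0.28, adjusted p = 0.0222, limma). The other 2 dim sets reached at most 18.3 in any sample and did not pass there.

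CRYAB, the small heat shock protein of muscle and lens, had the largest difference among the 17. Its signals were 18544, 8868 and 13818 in JB IMF, 14386, 3933 and 11521 in HS IMF, 2977, 2852 and 1422 in JB SCF and 1377, 2819 and 2416 in HS SCF. The 6 IMF samples stood apart from the 6 SCF samples, HS IMF 2 being the lowest of IMF. The difference was 2.47 ± 0.37, 5.56-fold (adjusted p = 0.00129, limma). The order of group means on the normalised log2 scale was JB IMF at 13.87 ± 0.83 (SD, n = 3), HS IMF at 13.15 ± 0.94, JB SCF at 11.04 ± 0.55 and HS SCF at 11.03 ± 0.51. Neighbours within a depot differed by less than their spread. In the RefSeq annotation the next gene to CRYAB is HSPB2, another small heat shock protein, which is described with its family below.

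**Figure D1:**
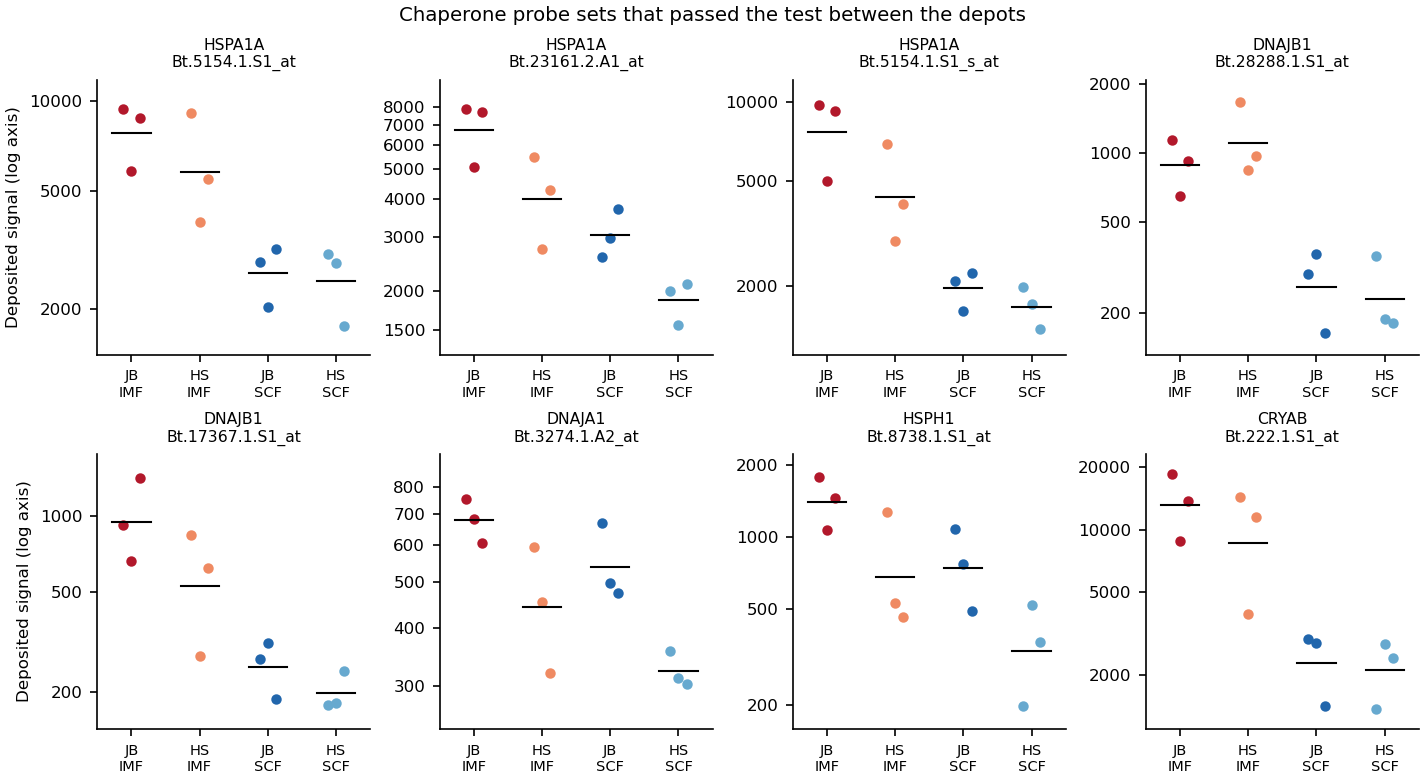
The vertical axes give the deposited signal (log axis) of the 8 chaperone probe sets that passed between the depots, for each sample of JB and HS, IMF in red and orange and SCF in blue, with a black line at the geometric mean of each group of 3. CRYAB runs from 3933 to 18544 in IMF and from 1377 to 2977 in SCF, while DNAJA1, HSPH1, HSPA1A Bt.23161.2.A1_at and DNAJB1 Bt.17367.1.S1_at overlap between the depots on this scale.

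The 4 other genes did not pass between the depots. HSPA8, the constitutive HSP70, had 5407 to 7944 in JB IMF, 4225, 5913 and 3701 in HS IMF, 5391 to 6691 in JB SCF and 3264 to 4158 in HS SCF, a difference of 0.39 ± 0.17 (adjusted p = 0.170, limma). HSPB1 on Bt.4415.1.S1_at had 5897 to 16552 over all samples and differed by 0.33 ± 0.21 (adjusted p = 0.343, limma). The 95% interval of HSPA8, 0.014 to 0.76, lay above 0 (unadjusted p = 0.0433, limma). An unadjusted p under 0.05 by limma was reached by 27.2% of all probe sets. That of HSPB1, an interval of −0.13 to 0.78, does not exclude a modest difference. HSP90AA1 on Bt.23179.1.S2_at lay between 3370 and 8763 in all samples and differed by 0.11 ± 0.17 (interval −0.25 to 0.47; adjusted p = 0.717, limma).

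HSPA5, the chaperone of the endoplasmic reticulum, had signals on Bt.4273.1.S1_at of 4712, 3772 and 4660 in JB IMF, 4096, 2915 and 8379 in HS IMF, 6042, 4950 and 4634 in JB SCF and 1937, 3900 and 2915 in HS SCF. HS IMF 3 was the highest of all 12 samples and HS SCF 4 the lowest. The depot difference was 0.34 ± 0.26 (adjusted p = 0.437, limma), and it was −0.18 ± 0.36 in JB and 0.85 ± 0.36 in HS (interval 0.060 to 1.65; adjusted p = 0.204, limma). On Bt.29939.2.S1_at it was −0.11 ± 0.31 (adjusted p = 0.860, limma), and Bt.29939.1.S1_at, at 0.010 to 17.5, was not tested. Neither tested HSPA5 set passed between the depots, over both breeds or within one.

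**Figure D2:**
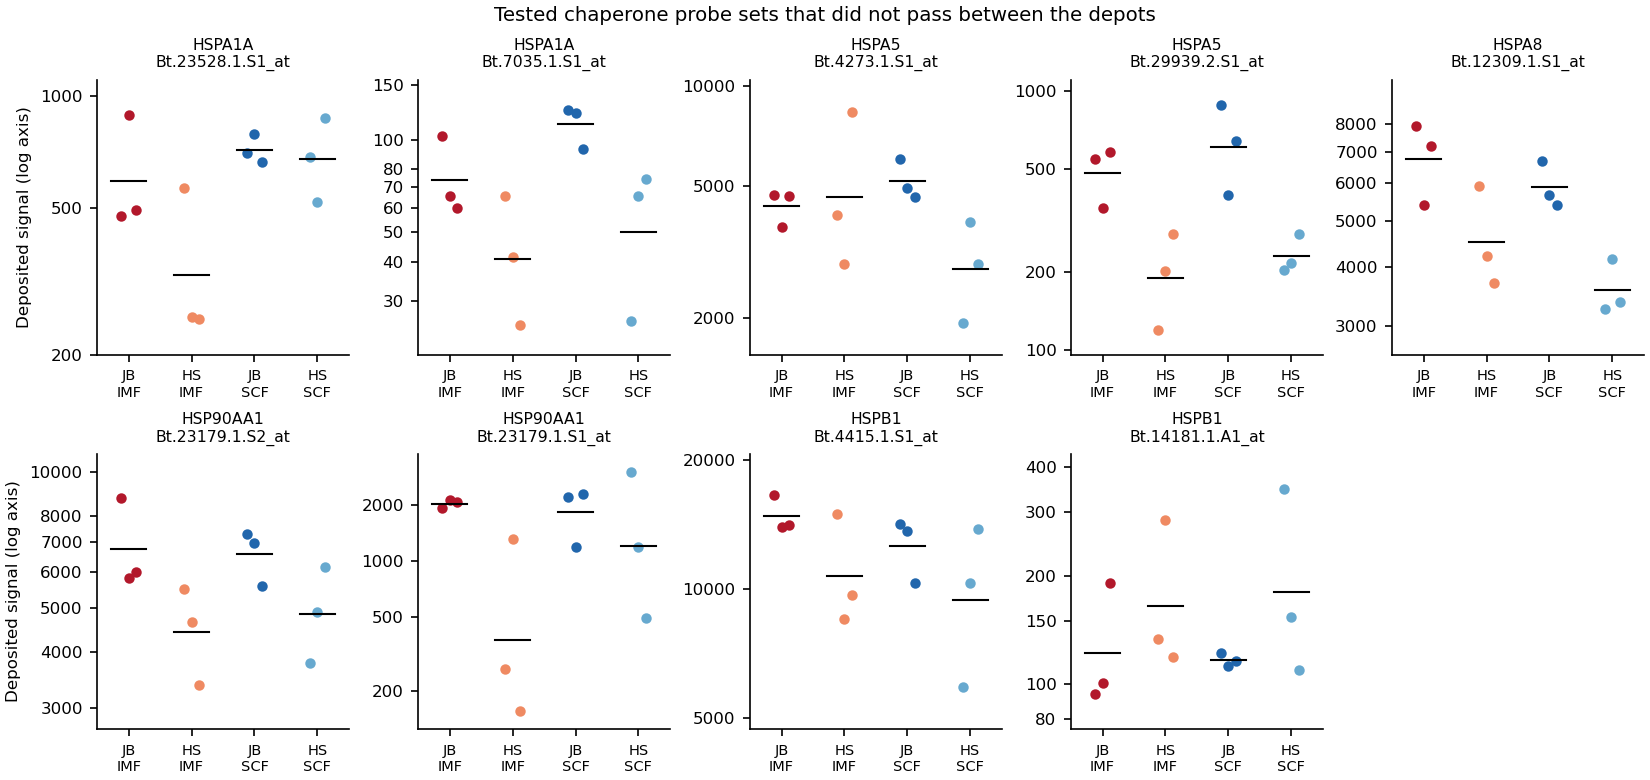
The vertical axes give the deposited signal (log axis) of the 9 tested chaperone probe sets that did not pass between the depots, with a point per sample and a black line at the geometric mean of each group of 3. HSP90AA1 Bt.23179.1.S1_at runs from 156 to 3004, widest within the HS groups.

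HSP90AA1 and HSPB1 each had 2 tested sets whose readings did not move together. HSP90AA1 Bt.23179.1.S1_at had 1919, 2118 and 2064 in JB IMF, 262, 1308 and 156 in HS IMF, 2207, 1188 and 2298 in JB SCF and 3004, 1180 and 491 in HS SCF. It spread over more than a factor of 6 within each HS group, while the JB IMF samples were nearly equal, and it correlated with its partner set at 0.146 over the 12 samples. For HSPB1, Bt.14181.1.A1_at, at 94.1 to 348, correlated at −0.711 with Bt.4415.1.S1_at. By contrast the DNAJB1 sets correlated at 0.863 and the HSPA5 sets at 0.493. These are descriptions over samples that differ in depot and breed.

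Within breeds, the depot comparison sets 3 samples against 3, with 1 spread estimated from all 12 samples. HS samples correlated less within their groups than JB samples, so this shared spread may be too small for HS. In JB, 5 of 17 chaperone probe sets were higher in IMF and 0 lower, where 2.15% of all were higher and 0.916% lower. They were CRYAB (2.83 ± 0.52, adjusted p = 0.0106), HSPA1A Bt.5154.1.S1_s_at (2.01 ± 0.34, adjusted p = 0.00562) and Bt.5154.1.S1_at (1.58 ± 0.35, adjusted p = 0.0302), and DNAJB1 on Bt.17367.1.S1_at (1.90 ± 0.41, adjusted p = 0.0273) and Bt.28288.1.S1_at (1.73 ± 0.37, adjusted p = 0.0266), all by limma. HSPA1A Bt.23161.2.A1_at, at 1.17 ± 0.30, did not pass (adjusted p = 0.0623, limma). Counts of 7 sets without overlap compare with 14.1% of all probe sets.

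In HS, 5 of 17 were higher and 0 lower, where 1.80% of all were higher and 1.52% lower. DNAJB1 Bt.28288.1.S1_at differed most, by 2.49 ± 0.37, 5.62-fold (adjusted p = 0.00340, limma). The others were CRYAB (2.12 ± 0.52, adjusted p = 0.0474), DNAJB1 Bt.17367.1.S1_at (1.67 ± 0.41, adjusted p = 0.0488), and HSPA1A on Bt.5154.1.S1_s_at (1.55 ± 0.34, adjusted p = 0.0298) and Bt.23161.2.A1_at (1.30 ± 0.30, adjusted p = 0.0390), by limma. No overlap with IMF above was seen for 8 of 17, against 7.79% of all. HSPH1 (1.33 ± 0.39, adjusted p = 0.0838) and DNAJA1 (0.78 ± 0.22, adjusted p = 0.0783) did not overlap in HS after normalisation, though the deposited signals of both did, and neither passed by limma.

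These within-breed counts changed when single samples were left out, in HS also when JB samples were. Totals over all probe sets are not given here for these fits, so the counts have no share beside them. In JB the count fell from 5 to 1 without JB IMF 1 or JB SCF 6, to 2 without JB IMF 3 or JB SCF 4 and to 3 without JB SCF 5. Leaving out another sample could also raise it above 5. In HS it fell to 1 without HS IMF 3, HS SCF 5 or HS SCF 6, to 2 without HS IMF 1, HS SCF 4, JB IMF 3 or any one of the 3 JB SCF samples, and to 3 without JB IMF 1; without HS IMF 2 it was 7. HSPA1A Bt.5154.1.S1_s_at in JB and DNAJB1 Bt.28288.1.S1_at in HS passed in all 12 such fits. The depot difference itself was not shown to differ between breeds: 0 of 17 passed for the interaction, nor any of the 16811 probe sets (0%), and 0 of 17 reached an unadjusted p under 0.05 by limma.

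**Figure D3:**
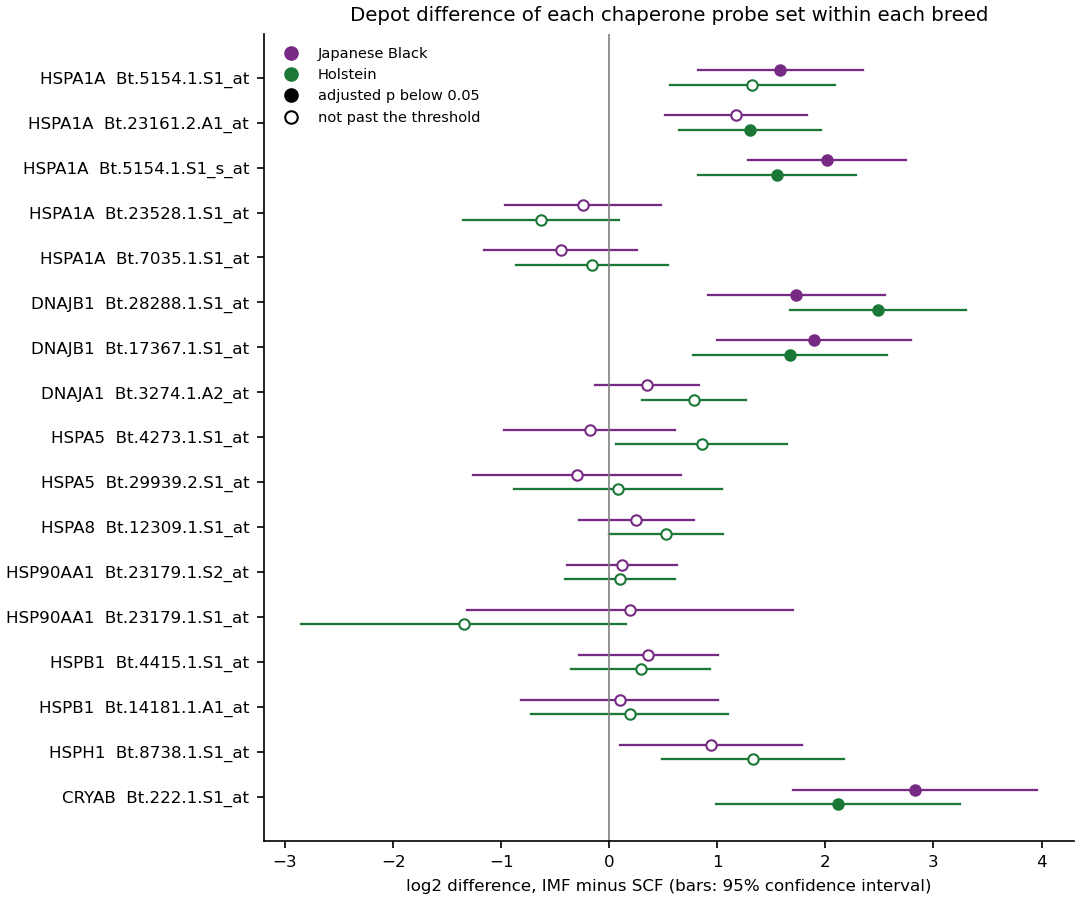
The horizontal axis gives the log2 difference of IMF minus SCF for each of the 17 tested chaperone probe sets, in JB (purple) and HS (green), with bars for the 95% confidence interval and filled points at an adjusted p below 0.05. The sets of DNAJB1 and CRYAB are filled in both breeds, at 1.67 to 2.83, as is HSPA1A Bt.5154.1.S1_s_at, and the HSP90AA1 set Bt.23179.1.S1_at has the widest intervals.

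Muscle and stromal markers moved with the same contrast. Of 20 skeletal muscle fibre genes, 17 were higher in IMF and 0 lower, with a median difference of 6.57. MYH1, a fast myosin heavy chain, had 7655 to 12810 over all IMF samples and 18.1 to 3554 in SCF, and ACTA1, skeletal actin, 11382 to 16354 and 6.95 to 7292. In HS SCF, 6 of the 20 lay below the limit of detection in every sample (MYL2, MYOT, MYOZ1, NEB, ATP2A1 and SLN), and in JB SCF 1 did (ATP2A1), while TNNT1 was listed at 0 in a JB SCF sample. Of 9 smooth muscle and pericyte genes, 7 were higher in IMF, with a median of 2.53; the mean log2 level of this list ran from 9.6926 to 11.722 over the IMF samples and from 8.0155 to 8.7324 over the SCF samples. All 10 macrophage and myeloid genes were lower (median −2.17), and of 12 adipocyte genes 1 was lower, CFD, and 0 higher (median −0.998). None of 8 endothelial genes (median −0.047) or 5 erythroid genes (median 0.23) passed by limma, and 1 and 0 reached an unadjusted p under 0.05, as did 10 of the 12 adipocyte genes and 27.2% of all probe sets. The part of these markers in the chaperone differences was not tested.

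JB SCF 6 and HS SCF 5 stood apart from the other SCF samples in their muscle genes. CRYAB was 1422 in JB SCF 6, the lowest of JB SCF, and 2819 in HS SCF 5, the highest of HS SCF. Without these 2 samples, which leaves the 6 IMF samples with their high muscle levels in place, CRYAB differed by 2.45 between the depots (adjusted p = 0.00908), HSPA1A Bt.5154.1.S1_s_at by 1.86 (0.00553) and DNAJB1 Bt.28288.1.S1_at by 1.89 (0.00483), by limma over both breeds. In that fit 6 of 17 passed, with HSPH1 (1.15, adjusted p = 0.0504) and DNAJA1 (0.51, adjusted p = 0.183) lost, by limma. The share over all probe sets in that fit is not given here. Among IMF samples, JB IMF 2 and HS IMF 2 had the lowest muscle level of their group (12.231 and 11.795) and its lowest CRYAB signal (8868 and 3933). HS IMF 3 had the highest muscle level (12.822), but its CRYAB signal of 11521 lay below the 14386 of HS IMF 1. Whether the 2 are linked was not tested.

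The breeds were compared within each depot, the other comparison that the design names. In IMF, 0 of the 17 chaperone probe sets passed by limma, where 4 of 16811 (0.0238%) did, and 1 reached an unadjusted p under 0.05, against 10.2% of all. That was HSP90AA1 Bt.23179.1.S1_at, at 1919 to 2118 in JB IMF and 156, 262 and 1308 in HS IMF, which differed by 2.01 ± 0.69 (unadjusted p = 0.0131, adjusted p = 0.485, limma). It was the only one of the 17 without overlap between the breeds in IMF, against 7.31% of all with JB above. The other HSP90AA1 set differed by 0.31 ± 0.23. Of the 17 differences 14 were positive, with a median of 0.39 against 0.10 over all tested probe sets (0.61 against 0.38 in the values as deposited).

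DNAJB1 gave opposite signs in this comparison. Bt.28288.1.S1_at differed by −0.69 ± 0.37 (JB minus HS; adjusted p = 0.514) and Bt.17367.1.S1_at by 0.43 ± 0.41 (adjusted p = 0.692), neither beyond the spread by limma. HSPA5 was likewise split, at −0.27 ± 0.36 on Bt.4273.1.S1_at and 0.85 ± 0.44 on Bt.29939.2.S1_at. CRYAB, at 0.72 ± 0.52 (interval −0.41 to 1.85), and HSPH1, at 0.61 ± 0.39, did not pass, and their intervals do not exclude a difference of more than 2-fold.

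In SCF, 0 of 17 passed by limma, where 1 of 16811 (0.00595%) did, and 5 reached an unadjusted p under 0.05, against 3.56% of all. Their adjusted p was 1.00 after rounding. All 5 were higher in JB: HSPA5 Bt.29939.2.S1_at by 1.23 ± 0.44, HSPH1 by 1.00 ± 0.39, HSPA1A Bt.7035.1.S1_at by 0.85 ± 0.32, DNAJA1 by 0.62 ± 0.22 and HSPA8 by 0.57 ± 0.24. For HSPA5 the signals were 885, 397 and 639 in JB SCF and 203, 217 and 280 in HS SCF. For HSPA8 they were 6691, 5659 and 5391 in JB SCF and 3264, 4158 and 3369 in HS SCF. JB stood above HS without overlap on 7 of the 17, against 5.81% of all: both HSPA5 sets, HSPA1A Bt.7035.1.S1_at and Bt.23161.2.A1_at, DNAJA1, HSPA8 and HSP90AA1 Bt.23179.1.S2_at. The last of these overlapped before normalisation, since HS SCF 6 had 6169 and JB SCF 6 had 5597.

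Among the genes with the largest depot differences, CRYAB differed by 0.013 ± 0.52 (interval −1.12 to 1.14), DNAJB1 by 0.071 ± 0.37 and 0.21 ± 0.41, and HSPA1A by 0.14 ± 0.34 on Bt.5154.1.S1_s_at, −0.029 ± 0.35 on Bt.5154.1.S1_at and 0.62 ± 0.30 on Bt.23161.2.A1_at between the breeds in SCF. These intervals are wide, and a p that misses the threshold does not show that the breeds are alike. Of the 17 differences in SCF, 14 were positive (16 with arrays centred on their medians or as deposited), with a median of 0.29 against 0.0029 over all.

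Over both depots together, a comparison added after the data were seen, JB was above HS on 15 of 17 probe sets, with a median of 0.37 against 0.043 over all. None passed by limma, where 5 of 16811 (0.0297%) did, while 8 reached an unadjusted p under 0.05, against 10.6% of all. The smallest adjusted p was 0.407, for HSPA5 Bt.29939.2.S1_at (1.04 ± 0.31), followed by HSPA1A Bt.7035.1.S1_at (0.71 ± 0.23, adjusted p = 0.433) and HSPH1 (0.81 ± 0.27, adjusted p = 0.447). Also among the 8 were HSP90AA1 Bt.23179.1.S1_at, HSPA1A Bt.23161.2.A1_at, HSPA8 and DNAJA1, and, with the opposite sign, HSPB1 Bt.14181.1.A1_at (−0.68 ± 0.30). For the difference of the breed effect between depots, the largest values were 1.54 ± 0.98 for HSP90AA1 Bt.23179.1.S1_at and −1.04 ± 0.52 for HSPA5 Bt.4273.1.S1_at (both adjusted p = 0.990, limma), and 2.14% of all probe sets reached an unadjusted p under 0.05.

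**Figure D4:**
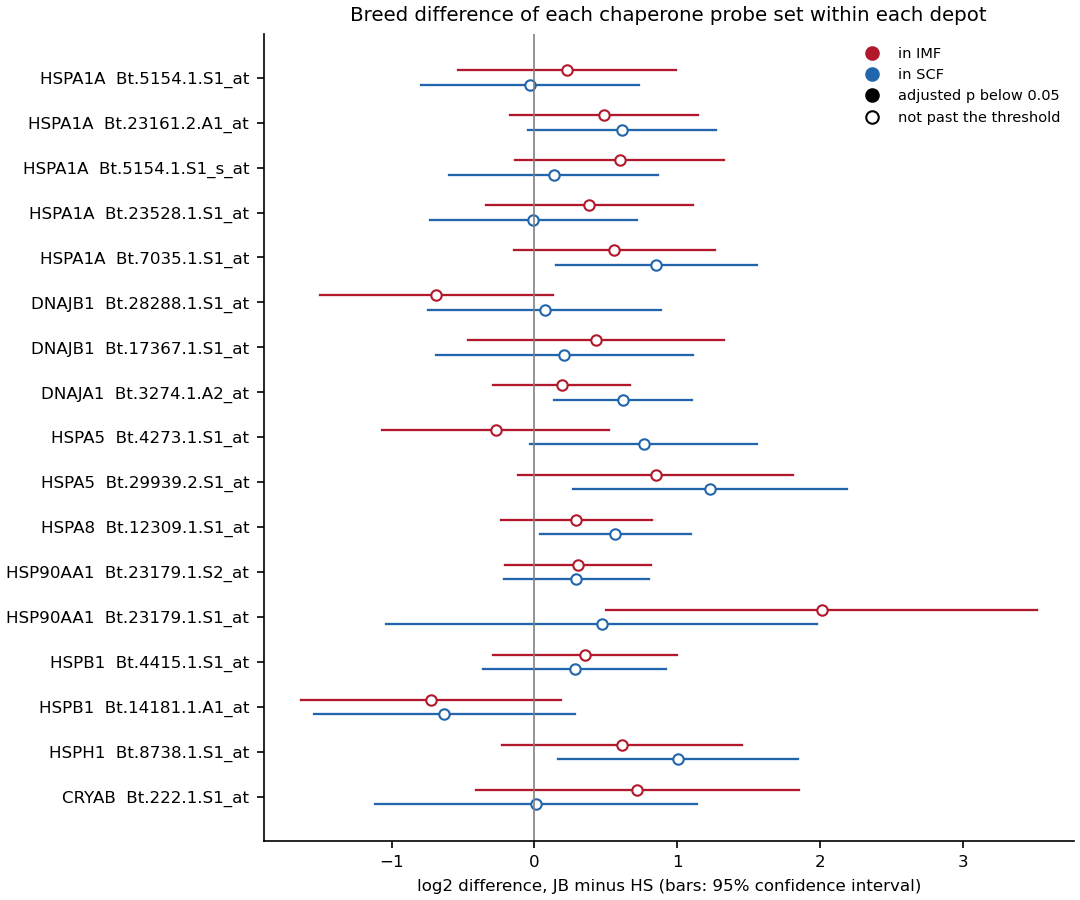
The horizontal axis gives the log2 difference of JB minus HS for each of the 17 tested chaperone probe sets, in IMF (red) and SCF (blue), with bars for the 95% confidence interval; no point is filled, since none reached an adjusted p below 0.05. The interval of HSP90AA1 Bt.23179.1.S1_at in IMF lies above 0, and in SCF those of HSPA5 Bt.29939.2.S1_at, HSPH1, HSPA1A Bt.7035.1.S1_at, DNAJA1 and HSPA8 do.

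The wider chaperone network was read through lists of named genes, also chosen with earlier results known, each gene by its brightest tested probe set. Read in that way, all 9 genes had positive depot differences, from 0.11 to 2.47 with a median of 0.57, and 5 passed; in the values as deposited 8 were positive, HSP90AA1 having changed sign, and 3 passed. Other small heat shock proteins stood furthest from zero: all 5 tested were positive, with a median of 2.32, and 3 passed, counts that held in the values as deposited and with arrays centred on their medians. HSPB2, the neighbour of CRYAB, was higher by 3.11 ± 0.51 (adjusted p = 0.00249), and its signal ran from 389 to 3738 over the IMF samples and from 193 to 262 over those of SCF. HSPB6, which binds actin-regulating proteins in muscle, was higher by 2.48 ± 0.39 (adjusted p = 0.00208), and HSPB8, which works with BAG3 in clearing misfolded proteins, by 2.32 ± 0.32 (adjusted p = 0.000813), all by limma. HSPB3 (1.24) and CRYAA (0.70) did not pass. For these and the following lists, the shares over all probe sets were 4.66% higher in IMF and 6.33% lower.

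HSP70 and HSP90 co-factors also held members higher in IMF, 5 of 21 and 0 lower, with a median of 0.28 (3 of 21 with arrays centred on their medians or as deposited). UNC45B, the muscle chaperone of myosin, was higher by 4.24 ± 0.42 (adjusted p = 5.64e-05, limma), with a signal of 112 to 730 over IMF samples but only 0.010 to 37.9 over SCF samples, near background, so its fold depends on the 16 added. STIP1, which joins HSP70 to HSP90, was higher by 1.13 ± 0.21 (adjusted p = 0.00597) and BAG2, a regulator of HSP70, by 1.48 ± 0.28 (adjusted p = 0.00615); another BAG2 set was at 1.21 (adjusted p = 0.0509). PPID, a cyclophilin that binds HSP90, was higher by 0.67 ± 0.18 (adjusted p = 0.0316), but its other set was at −0.48 (adjusted p = 0.295). FKBP4, an immunophilin of HSP90, was higher by 0.90 ± 0.26 (adjusted p = 0.0433, limma) and is named after its values were seen. PPID was lost in 6 of the 12 fits without 1 sample (adjusted p of 0.0547 to 0.0905: JB IMF 1, JB IMF 3, JB SCF 5, JB SCF 6, HS SCF 5 and HS SCF 6) and FKBP4 in 11 (0.0539 to 0.113, all but HS IMF 2).

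Among other J-domain proteins 2 of 21 were higher and 0 lower, with a median of 0.0044 (−0.17 as deposited). DNAJB5, a close relative of DNAJB1, was higher by 2.82 ± 0.39 (adjusted p = 0.000723), at 439 to 1164 across IMF samples and 68.0 to 423 across SCF samples. DNAJA4, of the class of DNAJA1, was higher by 1.56 ± 0.38 (adjusted p = 0.0232, limma), and was lost without JB IMF 1 (adjusted p = 0.0669), JB IMF 3 (0.0546) or JB SCF 6 (0.0598). HSF1, the factor that induces heat shock genes, was higher by 0.83 ± 0.17 (adjusted p = 0.00808, limma), with overlapping signals that ran from 271 to 617 for IMF and from 246 to 392 for SCF. Its other set was at 0.11 (adjusted p = 0.785), and it was lost in the values as deposited (0.64, adjusted p = 0.0720) and in the fit that omitted JB SCF 6 together with HS SCF 5 (0.80, adjusted p = 0.0630). HSF2 was at 0.79 (adjusted p = 0.0582) and HSF4 at −0.30.

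The remaining families had no member called higher. None of 14 chaperonin and prefoldin genes passed (median 0.084, range −0.23 to 0.33; median −0.050 as deposited), nor any of 3 other HSP90 genes (−0.69 for the mitochondrial TRAP1, 0.0092 for HSP90AB1 and 0.097 for the reticular HSP90B1, the latter 2 below 0 as deposited); 0 and 1 reached an unadjusted p under 0.05 by limma, against 27.2% of all probe sets. Of 6 other HSP70 and HSP110 genes 1 was lower and 0 higher: HSPA2, a testis-enriched HSP70 also made in other tissues, fell by 1.04 ± 0.29 (adjusted p = 0.0399, limma), from 2094 to 3962 in SCF to 410 to 1899 in IMF. That call was lost in 8 of the 12 fits without 1 sample, at adjusted p of 0.0620 to 0.0970: JB IMF 1, JB IMF 3, all JB SCF samples, HS IMF 3, HS SCF 5 and HS SCF 6.

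Endoplasmic reticulum chaperones and unfolded protein response genes are the partners of HSPA5. Of 24 tested, 0 were higher and 3 lower in IMF, against 4.66% and 6.33% of all probe sets. Differences were negative for 20 (22 as deposited), and the median was −0.24 against −0.06 over all. PDIA5, a protein disulfide isomerase, fell by 1.27 ± 0.23 (adjusted p = 0.00465), DNAJC3, the J-domain inhibitor of the kinase PERK, by 1.02 ± 0.21 (adjusted p = 0.00956) and SDF2L1, a partner of BiP, by 0.92 ± 0.24 (adjusted p = 0.0315), by limma. SDF2L1 was lost in 9 of 12 fits without 1 sample (adjusted p of 0.0515 to 0.0812; it passed without JB IMF 2, HS IMF 1 or HS SCF 4). DNAJC3 was lost with JB SCF 6 and HS SCF 5 both omitted (adjusted p = 0.0646). Between the breeds none of this list passed by limma. An unadjusted p under 0.05 by limma was reached by 1 in IMF, against 10.2% of all probe sets, and by 5 in SCF, against 3.56%. Differences were positive for 21 of 24 in IMF (median 0.14), against 57.8% of all tested probe sets (median 0.096). In SCF they were positive for 22 of 24 (median 0.345), against 50.4% of all (median 0.0029). In SCF MANF, a secreted stress protein, had the smallest p (0.99 ± 0.27, unadjusted p = 0.00303, adjusted p = 0.993, limma).

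**Figure D5:**
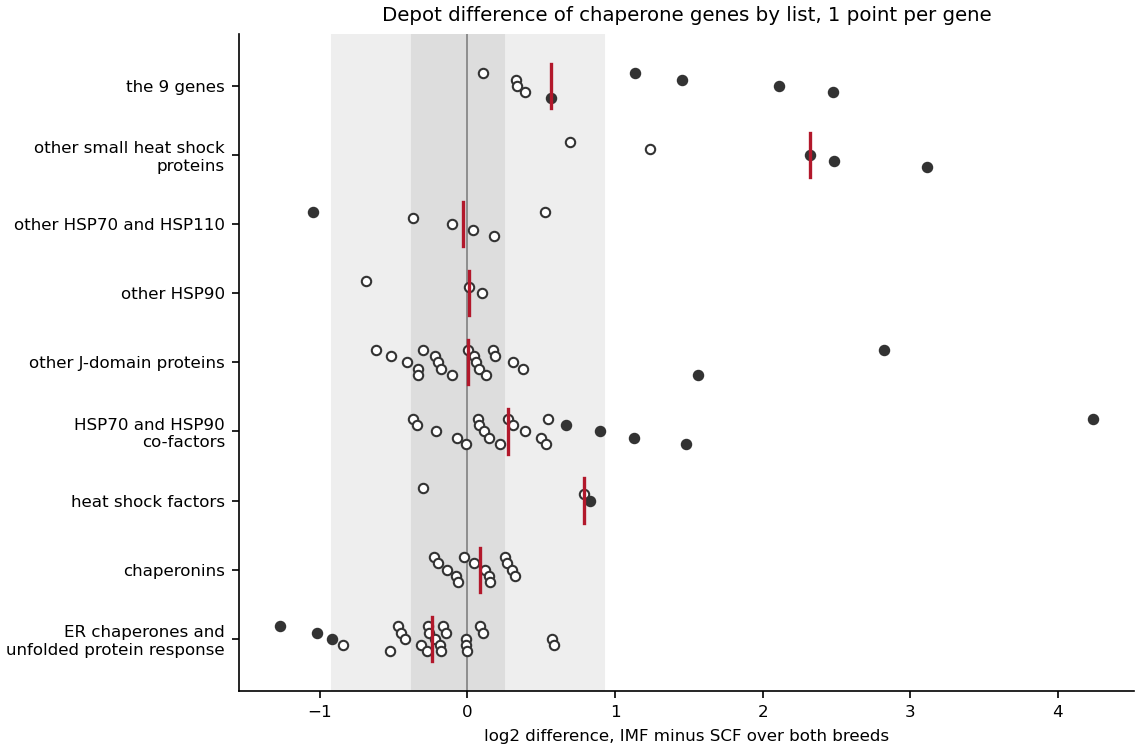
The horizontal axis gives the log2 difference of IMF minus SCF over both breeds, with 1 point per gene by its brightest probe set, filled at an adjusted p below 0.05, and a red line at the median of each list. The grey bands span the 25th to 75th (dark) and 5th to 95th (light) percentiles of all tested probe sets; the small heat shock proteins have their median at 2.32, the endoplasmic reticulum list at −0.24.

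The genes most like 3 of the chaperones were taken by Pearson correlation over the 12 samples, which carry the depot difference, among 7807 other named genes. Nearest to HSPA1A (Bt.5154.1.S1_at) were ASB5 (0.964), NDRG4 (0.956), KLHL41 (0.952), SH3BGR (0.949) and MAPRE2 (0.948), while CRYAB ranked at 145 (0.864) and DNAJB1 at 173 (0.854). Nearest to CRYAB were TMEM38B (0.971), ACYP2 (0.960), HSPB8 (0.960), ARPP19 (0.957) and GKAP1 (0.956). Nearest to HSPA5 (Bt.4273.1.S1_at) were CNOT6L (0.919), ADAM10 (0.918), NACA (0.916), RPL14 (0.916) and EIF2B4 (0.910), and no other of the 9 genes correlated with it above 0.605.

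With each group's mean subtracted, the picture among the chaperones changed. The samples of a group then deviated together most for HSPH1 and CRYAB (0.884), HSP90AA1 and HSPB1 (0.846) and HSPB1 and HSPH1 (0.774), while HSPA1A and CRYAB were at 0.310. Nearest to CRYAB were SIRT5 (0.975), TBCCD1 (0.954), DNAJA4 (0.945), RCAN1 (0.936) and HSF2 (0.923). For HSPA1A they were WLS (0.913), PPP1R16B (0.901), NDRG4 (0.896), LDHA (0.892) and KLHL41 (0.878), and for HSPA5 they were TAB2 (0.973), GPBP1 (0.969), PTP4A1 (0.962), MEF2A (0.957) and RAP1B (0.955). The HSPA5 set used, Bt.4273.1.S1_at, had an SD of 0.755 in HS IMF and 0.538 in HS SCF. In JB IMF and JB SCF it was 0.127 and 0.147, so HS samples weigh most in the HSPA5 values. Over the 36 pairs of the 9 genes the median correlation was 0.647 for the values, with all 36 positive, and 0.29 for the deviations, with 31 positive. All samples of a group share their breed, depot and array normalisation.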

How the data were processed

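The authors' deposited intensity values, linear signals of 24128 probe sets in 12 samples, were used. Per the submitters' processing notes, Affymetrix Expression Console 1.1 and GCOS 1.1.1 were used; how signals were summarised and scaled is not given in the sources used here. Values were turned into log2(signal + 16) and quantile normalised, 112 control probe sets were left out, and the 30% dimmest of the other 24016 (mean below a signal of about 33.4, called the limit of detection) were left out, leaving 16811. Symbols came from the platform annotation, updated through RefSeq. Of the 24016 probe sets, 13292 had 1 symbol, 86 several and 10638 none.

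Models with 4 group means were fitted with limma 3.58.1 in R 4.3.3 (8 residual and 4.05 prior degrees of freedom), with Benjamini-Hochberg adjustment within a comparison and an adjusted p below 0.05. The procedure was tested on simulated data whose noise was independent and, for each probe set, of equal spread in all 4 groups. HS samples here correlated less within their groups than JB samples, so this does not test the calls under unequal spread. Labels were parsed with jsonlite 2.0.0; plots used matplotlib 3.10.9 with numpy 2.4.6 under Python 3.11.15. Every probe set of the 9 genes is reported; from each pathway list, counts and up to 4 genes with the smallest p among those that passed are named, or the smallest p where none did; the 5 nearest genes are named for HSPA1A, HSPA5 and CRYAB. The 9 genes and the lists were chosen with earlier results of these data known. Alternatives were other filters, scalings, pseudocount, variance models and samples left out.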

Additional observations from a re-analysis of the deposited data

How the results depend on the processing

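Over both breeds, 6 to 8 chaperone probe sets passed between the depots when 1 sample was left out, 9 of 22 with no filter on dim probe sets, 7 with arrays centred on their medians, 6 in the values as deposited, and 5 of 9 with 1 probe set per gene. CRYAB, both DNAJB1 sets and 3 HSPA1A sets passed in each alternative that tested them. The depot count in JB (5) was 9 with array weights, 3 with 1 probe set per gene, 1 with JB SCF 6 and HS SCF 5 both omitted, and 1 to 6 with 1 sample left out. That in HS (5) was 3 with no filter, 2 with a pseudocount of 1, 2 as deposited, 2 with 1 probe set per gene, and 1 each with array weights, with only the compared groups, with HS IMF 3 and HS SCF 4 omitted, or with JB SCF 6 and HS SCF 5 omitted; with 1 sample left out it was 1 to 7. Some of these settings leave out samples or probe sets. Over all probe sets, 784 were called higher in IMF over both breeds before these changes, 748 with arrays centred on their medians and 579 as deposited. In HS, 303 were before these changes, 235 as deposited and 253 with a pseudocount of 1. Such totals are not given here for the other settings, so those counts have no share beside them. Why the counts changed was not tested for any of these settings. No called chaperone difference changed sign.

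Breed and interaction counts were 0 under every alternative, with lowest adjusted p of 0.160 in IMF, 0.279 in SCF, 0.157 over both depots and 0.561 for the interaction by limma. Sample numbers are shared between breeds, and the labels do not say whether they pair the samples. Deviations of same-numbered samples correlated at −0.278 to 0.117, which does not settle it. With the replicate block these counts were also 0. Depots share no numbers. In the values as deposited the median of all probe sets moved to 0.376 between breeds in IMF and to −0.194 between depots, where 579 were higher and 1318 lower, against 784 and 1064. Probe sets near background, such as the dim HSPH1 sets and UNC45B in SCF, are limited by signal.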

Other observations

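Genes of the immediate early response, which is often induced along with heat shock genes by handling or stress, were read beside the chaperones. Of 17 tested, 2 were higher in IMF over both breeds and 0 lower, against 4.66% and 6.33% of all probe sets. The median was −0.11. Those that passed were ATF3, a stress-induced transcription factor (1.48 ± 0.27, adjusted p = 0.00497, limma), and NR4A1, an immediate early nuclear receptor (1.17 ± 0.24, adjusted p = 0.00910, limma). The ATF3 signal ran from 1223 to 2809 over the IMF samples and from 300.2 to 1450.1 over those of SCF. Between the breeds none of the 17 passed by limma, where 0.0238% of all probe sets did in IMF and 0.00595% in SCF. An unadjusted p under 0.05 by limma was reached by 0 in IMF, against 10.2% of all, and by 6 in SCF, against 3.56%. In IMF 3 of 17 were positive (median −0.10, and 13 of 17 with a median of 0.204 in the values as deposited). In SCF 14 of 17 were positive (median 0.755, and 16 of 17 as deposited). Over all tested probe sets after normalisation, 57.8% were positive in IMF (median 0.096) and 50.4% in SCF (median 0.0029). The mean log2 level of the list was 10.989 to 11.413 in JB IMF and 10.913 to 11.56 in HS IMF. It was 11.432 to 11.71 in JB SCF and 10.427 to 11.11 in HS SCF, so the 2 breeds did not overlap in SCF. Of the 17 chaperone probe sets, 7 were without overlap there with JB above, against 5.81% of all, and 0 passed by limma. The part of the immediate early list in the chaperone values was not tested.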
